A study of Mus musculus with 12 samples.

Results

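Of 18193 mouse genes measured, 138 (0.759%) met a rule for a peak in red-only cells. These cells are 1 of 4 populations sorted from differentiating embryonic stem cells by a red and a green reporter. A gene was taken as a member when each of the 3 red-only arrays exceeded all of the other 9 arrays, the red-only mean was at least 20 intensity units, and that mean was at least 1.3 times the next highest population mean. The first condition alone was met by 407 genes. Each gene was represented by its probe set, a group of oligonucleotides on the array, with the highest mean over the 12 arrays. The rule used the red-only arrays themselves, so the excess in red-only cells is given below as a description, with no test. The same rule applied to the other populations found 357 genes peaking in double-positive cells, 18 in green-only cells and 720 in double-negative cells.

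The cells came from embryoid bodies, the aggregates that stem cells form in hanging drops, taken apart at day 6 of differentiation. All cells carried 2 transgenes, dsRed (red) under a reporter specific for the second heart field and eGFP (green) under an enhancer specific for cardiac cells. Cell sorting gave red-only cells (dsRed positive, eGFP negative), double-positive cells, green-only cells (eGFP positive, dsRed negative) and double-negative cells. Each population has 3 arrays, from experiments A, B and C. The labels name neither the enhancers nor the stem cell line, and they do not say whether the experiments were separate cultures, so the spread between arrays may be technical. Each array measured RNA pooled over a sorted population, in which fewer cells of a type and less RNA per cell cannot be told apart.

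The second heart field is the progenitor pool that adds the outflow tract and right ventricle to the heart, and its descendants include muscle, smooth muscle and endothelial cells. Mesenchyme is loose tissue whose cells lay down collagen and other matrix, and cells enter it by an epithelial-to-mesenchymal transition driven by the Snail and Twist families of transcription factors. In the embryonic heart, mesenchymal cells build the cushions that become valves, and other mesenchymal cells arise from the epicardium.

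As a check of the sort, the cardiac transcription factor Nkx2-5 averaged 166 ± 36.4 intensity units in red-only cells, 415 ± 41.7 in double-positive cells, 232 ± 37.9 in green-only cells and 35.5 ± 3.45 in double-negative cells (SD, n = 3 each). Mef2c, a cardiac transcription factor of the second heart field, averaged 236 ± 41.9 in red-only cells, 458 ± 25.5 in double-positive cells, 231 ± 65.4 in green-only cells and 21.6 ± 6.78 in double-negative cells. Isl1, the classical second heart field factor, averaged 101 ± 5.60, 86.7 ± 9.46, 80.5 ± 7.94 and 44.5 ± 8.99 in that order. Red-only and green-only cells thus both held Nkx2-5 and Mef2c at mean levels between those of double-negative and double-positive cells. Mean Mef2c was similar in red-only and green-only cells and did not tell them apart. Mean Isl1 was highest in red-only cells. Array medians ran from 6.29 to 6.73 units, and single values from 2.09 to 8820. The ratio of 3′ to 5′ actin probes, a sign of RNA length, was 1.40, 1.48 and 1.32 on the red-only arrays and 1.33 to 1.55 on the other 9.

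The red-only arrays of experiment A (red-only A) and experiment C (red-only C) stood apart for the members, in opposite directions. Of the 138 genes, 80 had their highest red-only value in red-only A, against 31 in experiment B and 27 in experiment C. The lowest red-only value was in red-only C for 63, in experiment B for 46 and in red-only A for 29. Red-only A had a median log2 difference from the other red-only arrays of 0.12 over the members. Over all genes at the same minimum level it was 0.01. For red-only C these were -0.13 and 0.02. Without red-only A, 147 genes met the rule, and 112 of the 138 members were among them. Without red-only C, 176 met it, and 130 of the members were among them.

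The windows shown next lie just upstream of 3 members that encode transcription factors of mesenchyme, from the Snail, Twist and forkhead families. Each runs over the 250 bases before the gene's start, from RefSeq on build GRCm38.p6, 5′ to 3′ on the gene's strand. Capitals mark every match on either strand of each of 4 motifs, namely the TATA box (TATAAA), the E-box bound by Snail and Zeb factors (CACCTG), the GC box (GGGCGG) and the CCAAT box (CCAAT). A Twist-type E-box (CATATG), a forkhead motif (TGTTTAC) and a GATA motif (AGATAA) were also sought, and none lay in these windows.
Snai1, chr2:167537945-167538194, plus strand: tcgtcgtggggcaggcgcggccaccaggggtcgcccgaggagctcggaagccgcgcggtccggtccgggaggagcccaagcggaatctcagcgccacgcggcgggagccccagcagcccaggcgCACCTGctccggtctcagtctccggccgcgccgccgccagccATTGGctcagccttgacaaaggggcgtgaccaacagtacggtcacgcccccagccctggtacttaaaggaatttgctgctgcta
Twist1, chr12:33957421-33957670, plus strand: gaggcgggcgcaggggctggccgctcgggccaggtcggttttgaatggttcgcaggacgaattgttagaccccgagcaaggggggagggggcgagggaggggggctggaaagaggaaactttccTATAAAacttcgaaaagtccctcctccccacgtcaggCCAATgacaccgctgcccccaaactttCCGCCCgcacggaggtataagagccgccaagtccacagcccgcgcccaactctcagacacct
Foxc1, chr13:31806396-31806645, plus strand: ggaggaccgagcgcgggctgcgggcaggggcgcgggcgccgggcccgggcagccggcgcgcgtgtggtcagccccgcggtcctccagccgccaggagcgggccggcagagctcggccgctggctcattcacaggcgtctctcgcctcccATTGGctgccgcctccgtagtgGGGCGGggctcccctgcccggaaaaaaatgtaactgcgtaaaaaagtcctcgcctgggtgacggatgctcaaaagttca

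In the Snai1 window the E-box began 126 bases before the start and the CCAAT box, on the opposite strand, 84 bases before it. The Twist1 window held TATAAA at 126, CCAAT at 89 and the GC box, on the opposite strand, at 62 bases before the start. The Foxc1 window held the CCAAT box on the opposite strand at 101 and the GC box at 79 bases before the start. These motifs are common: of 32851 windows of all genes, 12.4% held TATAAA, 17.2% CACCTG, 32.7% GGGCGG and 33.85% CCAAT on either strand, and the 4 letter strings do not overlap one another in these windows. A promoter window was found for 95 of the 138 members (68.8%). That is under the 80% needed for a comparison over the members, so a share of members with a motif would be void and none is given.

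The ratio of the red-only mean to the next highest population mean had a median of 1.47 and ran from 1.3 to 6.71. It was at least 5 for 2 members, 3 to 5 for 5, 2 to 3 for 19, 1.5 to 2 for 39, and under 1.5 for 73. The next highest population was green-only for 65 members, double-positive for 37 and double-negative for 36. The lowest was double-negative for 79, double-positive for 46 and green-only for 13. For 22 members all 9 other arrays lay under 20 units, the level the rule asks of red-only cells.

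**Figure D1:**
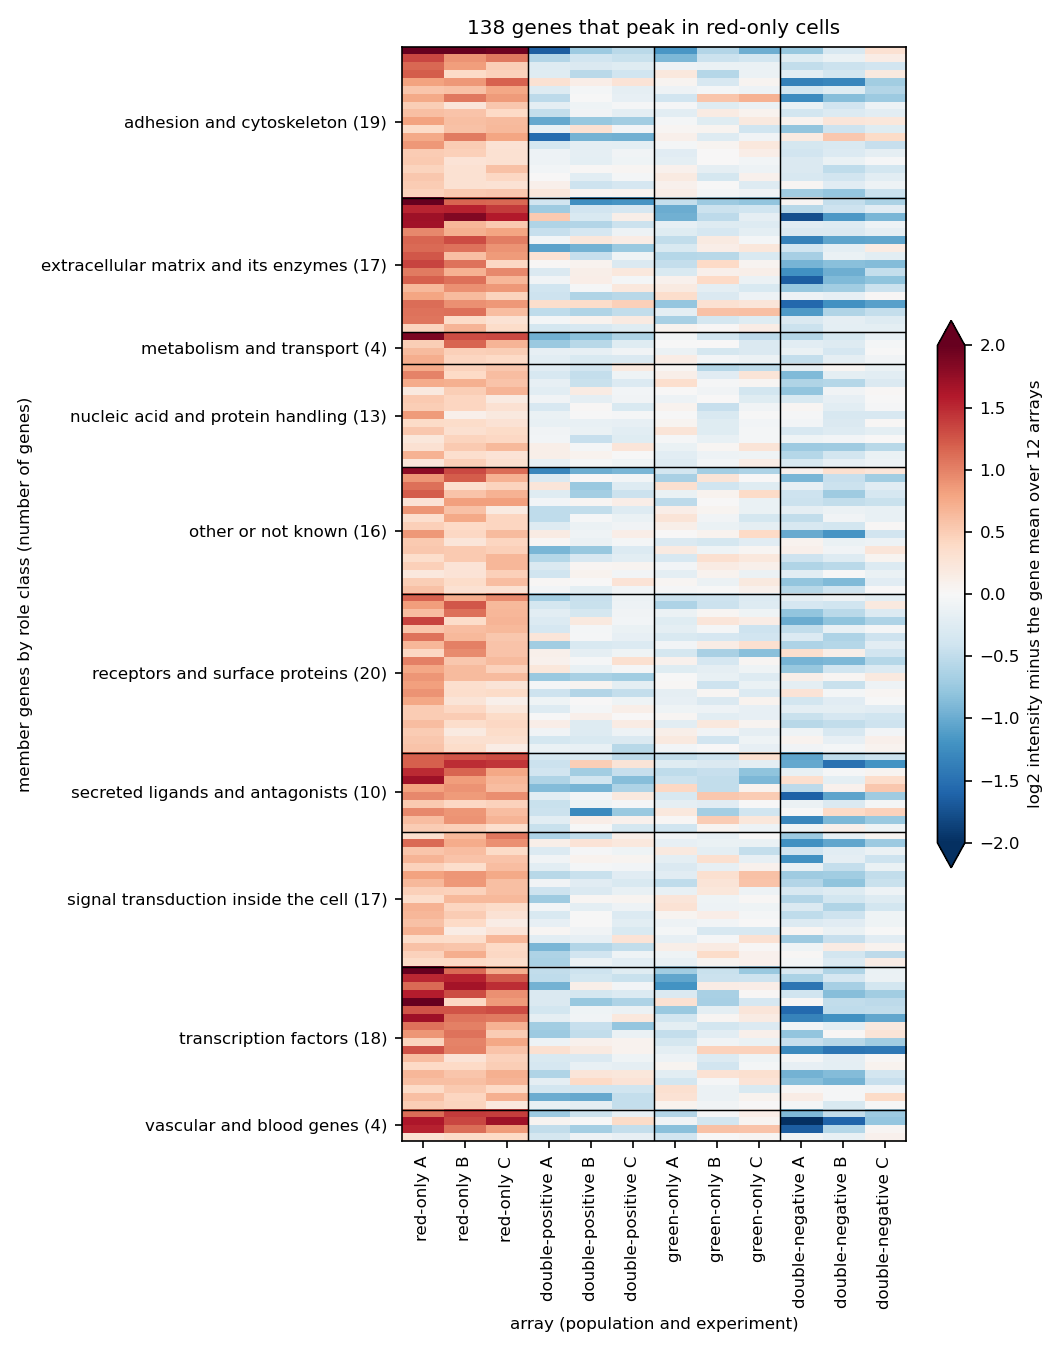
Log2 intensity of the 138 members (rows, grouped by role class) on the 12 arrays (columns, by population and experiment), as the difference from each gene's mean over the 12 arrays, with the darkest colours for the largest differences. The 3 red-only columns are red throughout, as the rule requires, and the deepest blue is mostly in double-negative columns, in matrix, transcription factor and vascular genes.

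By hand-assigned role, the members comprised 20 receptors and surface proteins, 19 adhesion and cytoskeleton genes, 18 transcription factors, 17 matrix genes and 17 genes of signalling inside the cell. A further 13 handle nucleic acids or proteins, 10 encode secreted ligands or antagonists, 4 are vascular or blood genes, 4 serve metabolism or transport, and 16 have another or no known role. The class of muscle genes held no member by this assignment, in which Pdlim3, a LIM protein of the muscle cytoskeleton, was placed with the cytoskeleton. The median ratio was 2.29 in vascular and blood genes, 1.96 in matrix genes and 1.80 in transcription factors, and between 1.39 and 1.72 in the other classes.

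**Figure D2:**
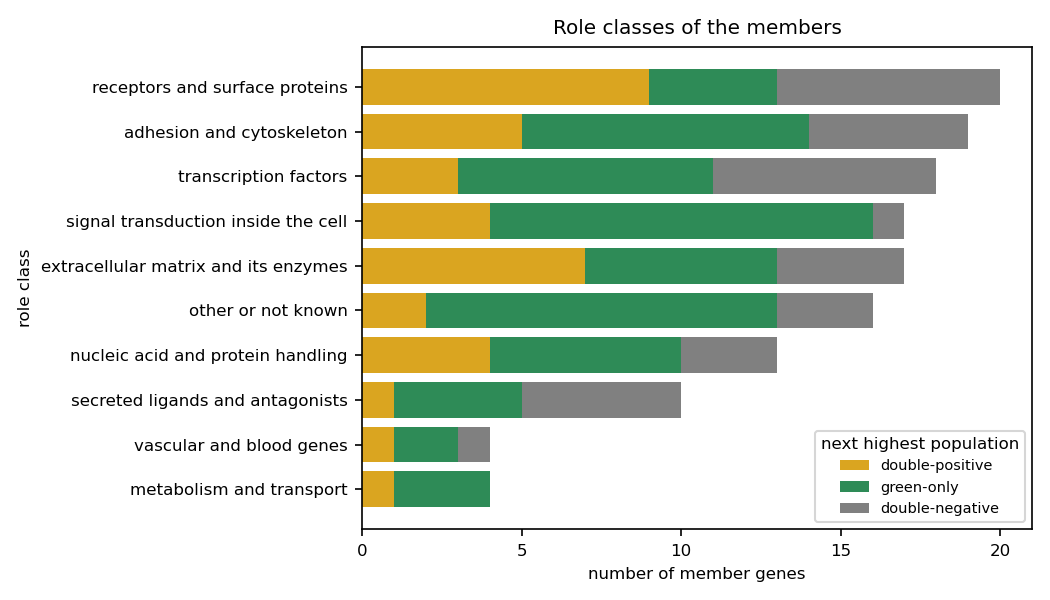
Number of members (horizontal axis) in each role class (vertical axis), split by the population with the next highest mean. Green-only cells were next highest for 12 of 17 genes of signalling inside the cell, and double-positive cells for 9 of 20 receptors and surface proteins.

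The secreted members include 2 ligands of the vascular endothelial growth factor family. Vegfc, the ligand of lymphatic and venous endothelium, read 57.3, 60.1 and 62.1 units in red-only cells in experiments A, B and C, 19.6, 20.4 and 17.5 in double-positive cells, 17.97, 18.8 and 31.5 in green-only cells, and 12.1, 17.7 and 18.7 in double-negative cells. Pgf, placental growth factor, which binds the receptor Flt1, read 80.5, 64.0 and 49.2 in red-only cells, 21.9, 17.7 and 20.8 in double-positive cells, 20.2, 20.9 and 16.5 in green-only cells, and 25.8, 28.2 and 29.8 in double-negative cells. Vegfc differed little among the red-only arrays, and the highest of the other arrays was green-only C.

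Dlk1, a membrane protein with a shed form that acts on progenitor differentiation, read 528, 637 and 622 in red-only cells, 171, 324 and 275 in double-positive cells, 195, 189 and 202 in green-only cells, and 113, 81.3 and 101 in double-negative cells. Ptn, pleiotrophin, a heparin-binding growth factor, read 67.9, 37.6 and 33.3 in red-only cells, 13.8, 15.9 and 11.7 in double-positive cells, 15.5, 14.9 and 11.2 in green-only cells, and 26.5, 18.3 and 26.8 in double-negative cells. The next highest population thus differed between them, double-positive for Dlk1 and double-negative for Ptn. The ratios to the next highest mean were 2.63 for Vegfc, 2.32 for Dlk1, 2.31 for Pgf and 1.94 for Ptn. The other 6 secreted members are Frzb, Igfbp4, Mdk, Igf2, Cthrc1 and Serpinf1. Frzb, a secreted Wnt antagonist, had a ratio of 1.60, Mdk, a heparin-binding growth factor related to pleiotrophin, 1.51, and Igf2, the fetal insulin-like growth factor, 1.39.

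Among receptors and surface proteins, Mrc2, an endocytic collagen receptor, had a ratio of 2.17 and Pdgfrb, the receptor tyrosine kinase of pericytes and mesenchyme, 2.12. Mrc2 read 45.8, 33.5 and 39.1 in red-only cells and 12.7 to 18.8 on the other 9 arrays. Pdgfrb read 21.2, 28.0 and 18.6 in red-only cells, 9.31, 8.67 and 11.0 in double-positive cells, 7.76, 8.78 and 9.89 in green-only cells, and 9.38, 9.03 and 13.5 in double-negative cells. Outside red-only cells both stayed under 20 units on every array. Itga9, an integrin subunit that binds matrix ligands, read 51.7, 72.5 and 53.9 in red-only cells and 19.6 to 34.9 elsewhere. Unc5c, a netrin receptor of axon and cell guidance, read 174, 87.6 and 109 in red-only cells and 34.2 to 80.3 elsewhere. The ephrin ligands Efnb1 and Efnb2, which signal between touching cells, had ratios of 1.32 and 1.52, and the TGF-beta receptor Tgfbr1 1.36.

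The matrix members are led by 2 collagen chains. Col3a1, a chain of fibrillar collagen III, read 384, 74.5 and 73.4 in red-only cells, 25.5, 14.2 and 14.7 in double-positive cells, 24.0, 20.1 and 19.1 in green-only cells, and 34.0, 23.9 and 21.4 in double-negative cells. Its ratio was 6.71, or 2.80 without red-only A. Col26a1, another collagen chain, read 27.9, 28.2 and 25.6 in red-only cells, 5.95, 7.51 and 7.69 in double-positive cells, 4.91, 7.24 and 7.43 in green-only cells, and 6.63, 7.31 and 8.30 in double-negative cells, a ratio of 3.68. All 9 other arrays were within the lowest part of the scale, and the red-only arrays were close together.

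Tgfbi, a secreted matrix protein induced by TGF-beta, read 185, 206 and 171 in red-only cells, 81.6, 46.4 and 61.7 in double-positive cells, 29.3, 39.7 and 50.4 in green-only cells, and 16.8, 25.8 and 30.4 in double-negative cells, a ratio of 2.96. Its other populations were ordered double-positive, green-only, double-negative by mean, and neighbours in that order overlapped. Bgn, biglycan, a small proteoglycan that binds collagen, read 63.9, 31.5 and 28.5 in red-only cells and 13.1 to 18.6 elsewhere. Its ratio was 2.38, or 1.73 without red-only A. Further matrix members were Mfap2 (2.11), Col5a2 (2.08), the gelatinase Mmp2 (2.003) and Fbn2 (1.82), where each value in parentheses is the ratio. Col3a1 and Col5a2 are neighbouring genes in the RefSeq annotation.

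The transcription factors include 3 that drive epithelial-to-mesenchymal transition. Twist1 read 52.7, 52.6 and 54.3 in red-only cells, 17.03, 20.6 and 20.3 in double-positive cells, 13.1, 19.1 and 25.9 in green-only cells, and 7.49, 15.4 and 15.7 in double-negative cells, a ratio of 2.75. Snai2 read 53.0, 44.0 and 33.9 in red-only cells, 14.6, 14.0 and 14.8 in double-positive cells, 14.6, 11.5 and 18.2 in green-only cells, and 13.6, 9.97 and 11.0 in double-negative cells, a ratio of 2.96. Snai1 read 25.01, 28.7 and 19.3 in red-only cells, 8.20, 9.68 and 12.3 in double-positive cells, 9.71, 11.7 and 14.5 in green-only cells, and 7.86, 13.8 and 16.2 in double-negative cells, a ratio of 1.93. Snai1 and Snai2 stayed under 20 units on all 9 other arrays, whereas Twist1 exceeded that level in double-positive B and C and green-only C. Twist1 was the steadiest of the 3 within red-only cells.

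Foxc1 and Foxc2 encode forkhead factors of second heart field and paraxial mesoderm that also act in vessels. Foxc1 read 69.6, 70.9 and 58.0 in red-only cells, 17.2, 18.95 and 17.9 in double-positive cells, 11.9, 18.1 and 18.3 in green-only cells, and 15.8, 19.2 and 22.5 in double-negative cells. Foxc2 read 64.3, 93.9 and 82.1 in red-only cells, 15.4, 32.1 and 28.3 in double-positive cells, 12.8, 32.6 and 32.3 in green-only cells, and 10.7, 18.6 and 22.9 in double-negative cells. The ratios were 3.45 and 3.09. For Foxc2 each population had its lowest value in experiment A.

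Tcf21, a factor of epicardium and visceral mesenchyme, read 56.5, 26.1 and 19.8 in red-only cells, 8.45, 8.94 and 10.0 in double-positive cells, 7.33, 8.71 and 7.09 in green-only cells, and 9.57, 7.84 and 10.8 in double-negative cells. Tlx1, a homeobox factor needed for the spleen, read 92.3, 29.1 and 39.7 in red-only cells, 17.9, 13.0 and 14.3 in double-positive cells, 27.0, 13.7 and 17.4 in green-only cells, and 22.1, 15.5 and 15.2 in double-negative cells. Both were highest in red-only A. Their ratios were 3.62 and 2.77, or 2.44 and 1.77 without that array. With Col3a1 and Bgn they are the 4 members whose value there was over double that of each other red-only array.

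**Figure D3:**
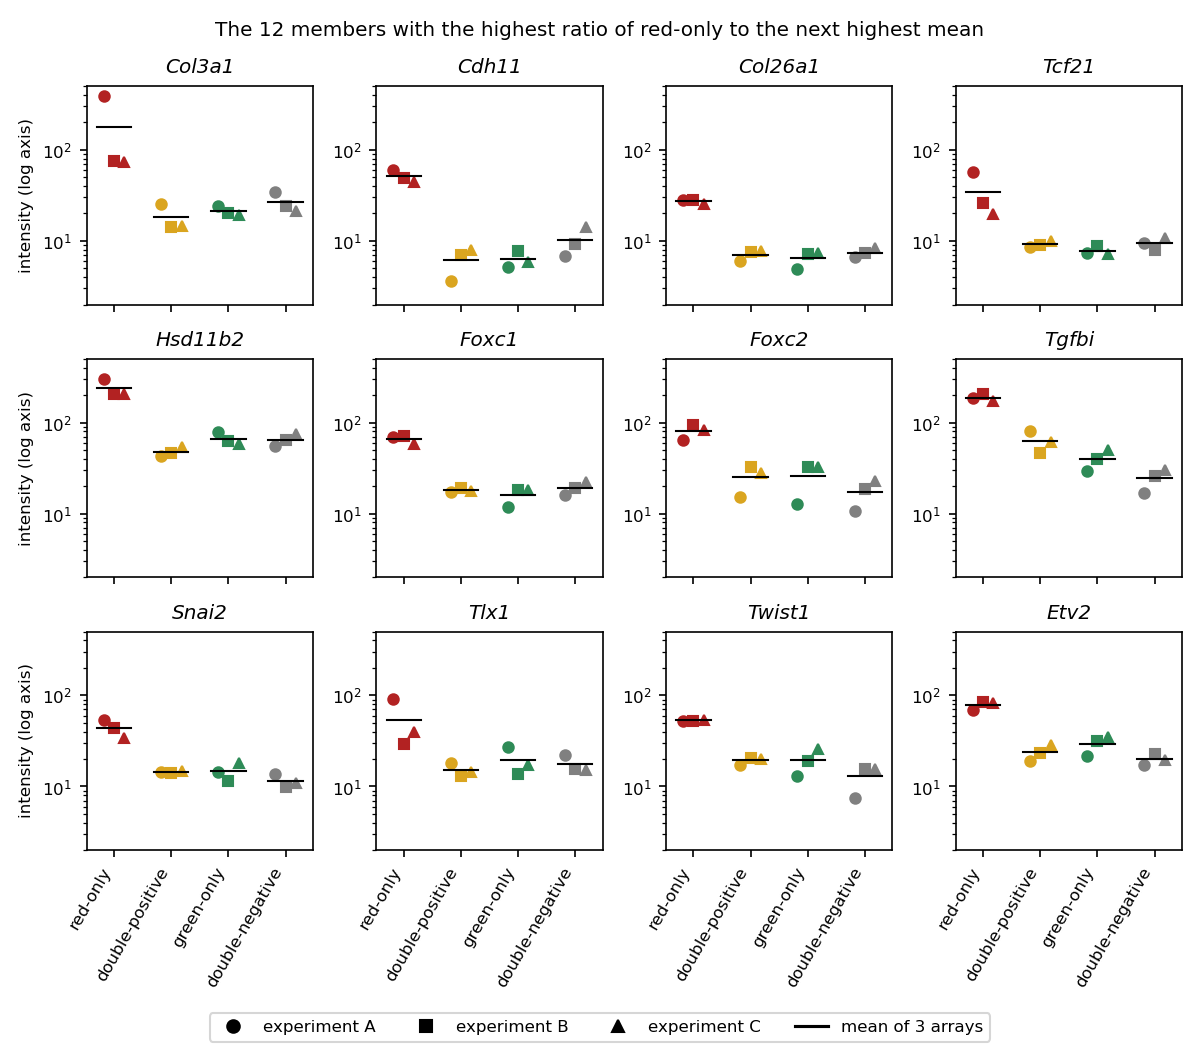
Intensity on a log axis (vertical) in the 4 populations (horizontal) for the 12 members with the highest ratio; symbols mark experiments A, B and C and bars the mean of 3 arrays. In Col3a1 the red-only array of experiment A, at 384, stands above those of experiments B and C, at 74.5 and 73.4, whereas the 3 red-only arrays of Twist1 lie between 52.6 and 54.3.

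Of the adhesion and cytoskeleton genes, Cdh11, a cadherin of mesenchymal cells, read 59.7, 49.4 and 44.4 in red-only cells, 3.67, 6.97 and 7.98 in double-positive cells, 5.13, 7.73 and 5.88 in green-only cells, and 6.87, 9.31 and 14.3 in double-negative cells. Its ratio was 5.04, or 4.62 without red-only A, and outside red-only cells most of its values lay near the array medians. Clmp, a junction-associated adhesion molecule, had a ratio of 2.25, Ncam1, the neural cell adhesion molecule, 1.96, and Nrep 1.80. Vim, the intermediate filament protein of mesenchyme, read 2300, 2852 and 2469 in red-only cells, 946, 1352 and 1222 in double-positive cells, 1049, 2005 and 2220 in green-only cells, and 569, 760 and 823 in double-negative cells. Its ratio was 1.44, and green-only B and C lay close below the red-only arrays.

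All 4 vascular and blood members are given here. Etv2, the ETS factor at the head of endothelial and blood development, read 69.0, 84.0 and 83.5 in red-only cells, 19.2, 23.6 and 28.3 in double-positive cells, 21.3, 31.5 and 34.8 in green-only cells, and 17.3, 22.7 and 19.3 in double-negative cells. Rgs5, a regulator of G protein signalling found in pericytes, read 119, 97.0 and 125 in red-only cells, 40.1, 38.6 and 50.2 in double-positive cells, 36.6, 29.9 and 40.3 in green-only cells, and 7.81, 12.7 and 22.5 in double-negative cells. Cd34, a surface protein of endothelial and blood progenitors, read 43.3, 32.3 and 27.0 in red-only cells, 10.6, 9.33 and 10.8 in double-positive cells, 8.40, 22.4 and 22.1 in green-only cells, and 4.77, 10.1 and 15.3 in double-negative cells. The ratios were 2.70, 2.64 and 1.94. Pald1, a phosphatase-like protein of endothelium, had a ratio of 1.32.

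The endothelial list as a whole did not follow Etv2. Of its 30 genes, 1 peaked in red-only cells and 1 in green-only cells, and the summed level ran from 1563 to 2061 on the red-only arrays, 734 to 1037 on the double-positive, 1129 to 2557 on the green-only and 628 to 923 on the double-negative arrays. Red-only and green-only arrays overlapped in that sum. Kdr, the main VEGF receptor, averaged 385 ± 73.9 in red-only cells, 145 ± 27.9 in double-positive cells, 386 ± 185 in green-only cells and 108 ± 35.6 in double-negative cells (SD, n = 3 each). Cdh5, the cadherin of endothelial junctions, averaged 44.9 ± 5.98, 20.9 ± 3.88, 71.8 ± 40.4 and 18.8 ± 8.20 in that order. Vwf, a gene of mature endothelium, was near the floor in every population, at 3.95 in red-only and 3.73 to 5.17 in the other 3. Whether endothelial RNA has a part in the members' values was not tested.

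In the remaining classes, Hsd11b2, the enzyme that inactivates glucocorticoids, read 304, 204 and 206 in red-only cells, 42.5, 46.7 and 53.8 in double-positive cells, 78.7, 62.7 and 57.8 in green-only cells, and 55.5, 64.6 and 73.9 in double-negative cells, a ratio of 3.59. Mgst1, a microsomal glutathione transferase, Slc39a6, a zinc transporter, and Heph, a copper-dependent iron oxidase, had ratios of 1.86, 1.59 and 1.44. Among genes of signalling inside the cell, Dusp4, a phosphatase of MAP kinases, had a ratio of 1.72, Dact1, a modulator of Wnt signalling, 1.66, and Prkd3, a protein kinase D, 1.57. The RNA-binding protein Bicc1, the vesicle coat subunit Sec24d, the RNA-binding protein Rbms1 and Scoc had ratios of 1.59, 1.54, 1.46 and 1.41.

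Nnat, neuronatin, a small membrane protein, read 2246, 1613 and 1413 in red-only cells, 262, 330 and 343 in double-positive cells, 504, 404 and 422 in green-only cells, and 685, 812 and 764 in double-negative cells, a ratio of 2.33. It is 1 of 4 imprinted members, with Dlk1, Igf2 and Plagl1, a zinc finger factor of the imprinted gene network. They are 4 of 21 imprinted genes measured (19.05%). Plagl1 read 1181, 975 and 723 in red-only cells, 605, 553 and 509 in double-positive cells, 424, 672 and 668 in green-only cells, and 200, 177 and 181 in double-negative cells. Nnat was lowest in double-positive cells, whereas the other 3 imprinted members were lowest in double-negative cells. Lhfp, 6330403K07Rik and Eva1b, the other leading genes with no role assigned, had ratios of 2.04, 1.68 and 1.66.

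Against lists of genes drawn up for this tissue, 10 of 38 mesenchyme and matrix genes were members (26.3%), compared with 0.759% of all genes. They were Cdh11, Col3a1, Col5a2, Fbn2, Mmp2, Pdgfrb, Snai1, Snai2, Twist1 and Vim. Of 16 PDGF and VEGF pathway genes 3 were members, Pdgfrb, Pgf and Vegfc. Of 31 guidance and ephrin genes 3 were members, Efnb1, Efnb2 and Unc5c, and of 21 second heart field genes 2, Foxc1 and Foxc2. Id3, an inhibitor of basic helix-loop-helix factors, and Tgfbr1 were 2 of 35 BMP and TGF-beta pathway genes, and Cd34 was 1 of 18 blood genes. Single members were also on the primitive streak list (Snai1), the lateral plate list (Tcf21), the neural list (Ncam1) and the stress list (Ier2, an immediate early gene). By the same rule, other genes of these lists peaked elsewhere. Double-positive cells held the peak of 3 mesenchyme and matrix, 3 second heart field and 4 guidance and ephrin genes. They also held that of 3 BMP and TGF-beta pathway and 2 lateral plate genes. Double-negative cells held that of 3 blood genes, 3 neural genes and 1 BMP and TGF-beta pathway gene. In green-only cells 1 PDGF and VEGF pathway gene peaked. No member was on the lists of 18 core cardiac transcription factors, 25 sarcomere genes, 12 smooth muscle genes, 38 Wnt, 19 Notch, 23 FGF, 12 hedgehog or 15 retinoic acid pathway genes, 34 Hox genes, 17 paraxial mesoderm genes, 18 pluripotency genes, 26 cell cycle genes or 23 endoderm genes. With 0.759% of all genes as members, lists this short would mostly hold none. Neither the zeros nor the lists with a single member are therefore read as a result. A list holds only the genes chosen for it, so these zeros do not cover members with a related role that were left off it, such as Frzb and Dact1 for Wnt signalling and Foxc1 and Foxc2 for paraxial mesoderm. The lists were drawn up with earlier results of these data known, so the shares describe the members and are no independent evidence.

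**Figure D4:**
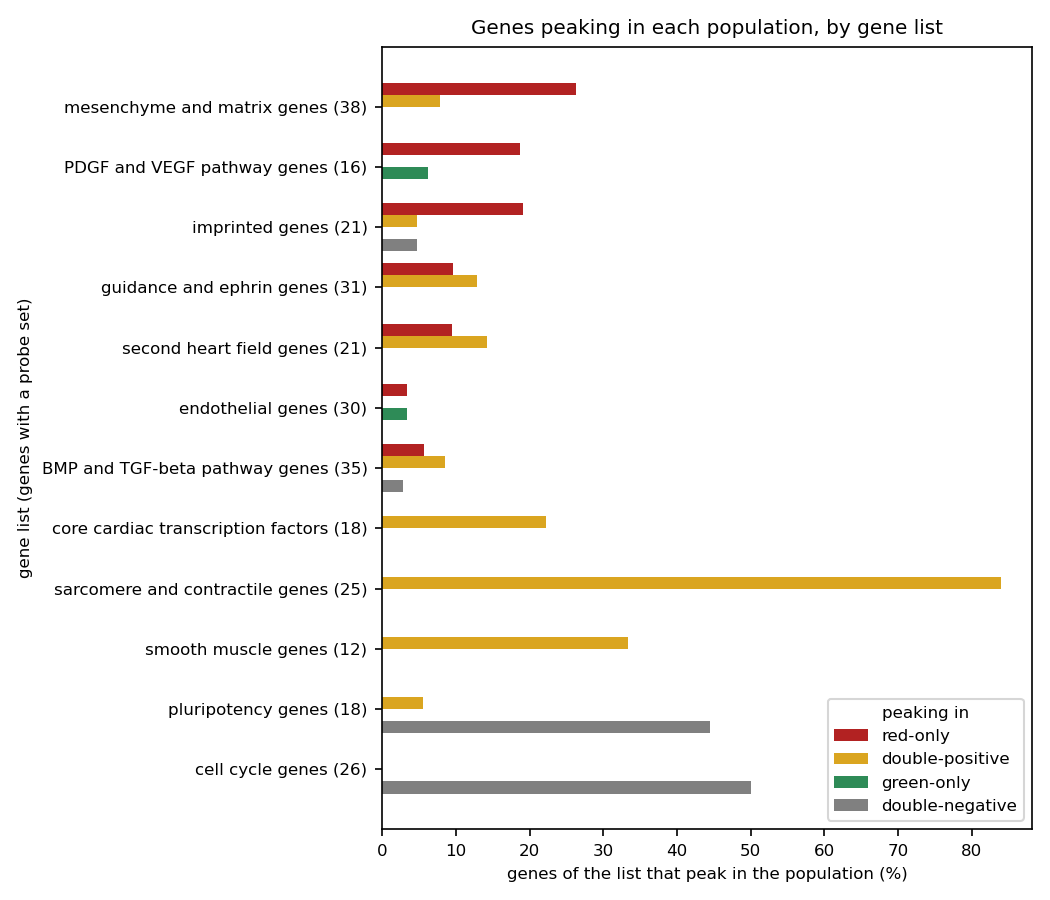
Percentage of the genes of 12 lists (horizontal axis) that peak in each population by the same rule; list sizes stand beside the names. Red-only cells lead in mesenchyme and matrix genes (10 of 38), PDGF and VEGF pathway genes (3 of 16) and imprinted genes (4 of 21), while 21 of 25 sarcomere genes peak in double-positive cells.

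How the members behaved among the other 3 populations was tested without the red-only arrays, with limma on the 9 other arrays and Benjamini-Hochberg adjustment over 13702 genes at a threshold of 0.05. The rule bears on these 9 arrays as well, since each had to lie below the lowest red-only array and the highest of the 3 means was held to the red-only mean over 1.3. The members' counts and medians are therefore not independent of the rule and are given as a description beside those of all genes. The p-values of named members come from the same bounded arrays, for genes picked by their large changes. They are read as a description too. All 138 members passed the filter on low values. Fold changes are differences of log2(intensity + 4.10), which understates the change of dim genes. In none of the 3 comparisons were 74 of the members called (53.6%), as for 67.1% of all genes. Since double-positive and green-only cells were each set against the same double-negative arrays, those 2 comparisons are not independent.

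In double-positive against green-only cells, 1 member was higher, where 2.3% of all genes were, and 11 were lower (7.97% of the members), where 2.11% of all genes were. The members' median log2 fold change was -0.08, and that of all genes 0.00. The largest decreases were Rai14, an ankyrin-repeat protein of the actin cytoskeleton (-0.91 ± 0.14, adjusted p = 0.00704), Id3 (-0.89 ± 0.16, adjusted p = 0.0141), Mmp2 (-0.89 ± 0.16, adjusted p = 0.0141), the basement membrane protein Nid1 (-0.82 ± 0.20, adjusted p = 0.0466) and the actin-binding protein kinase C substrate Marcks (-0.77 ± 0.12, adjusted p = 0.00710), each as limma's log2 fold change ± SE. The member that was higher was Col9a1, a collagen chain of cartilage (0.38 ± 0.09, adjusted p = 0.0461). These counts rest on few arrays. The number lower was 3 without double-positive A, 4 without double-positive B, 7 without green-only C, 7 without double-negative B and 6 without double-negative C, where 0.751% to 1.48% of all genes were lower in the same fits. It was 0 without experiment B, when 0 of all genes were called in this comparison by limma, and 0 without experiment C, when 6 of all genes were higher and 5 lower. The increase of Col9a1 was lost without any 1 of the 9 arrays except green-only C.

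Mmp2 read 203, 197 and 172 units in red-only cells, 43.9, 48.3 and 55.4 in double-positive cells, 75.2, 102 and 108 in green-only cells, and 70.7, 81.2 and 104 in double-negative cells. Rai14 read 59.9, 72.9 and 60.8 in red-only cells, 12.2, 18.4 and 18.1 in double-positive cells, 37.8, 29.5 and 33.8 in green-only cells, and 40.1, 51.2 and 46.0 in double-negative cells. In both genes the double-positive arrays lay below all other arrays, although these cells share the red reporter with the red-only cells. Of the 138 members, 8 were called lower in double-positive cells than in both green-only and double-negative cells (5.8%), as were 1.54% of all genes. The other 3 of the 11 were not called lower than in double-negative cells, among them Nid1, whose log2 fold change in double-positive against double-negative cells was 0.18 ± 0.20 (limma adjusted p = 0.574).

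In double-positive against double-negative cells, 32 members were higher (23.2%), where 13.1% of all genes were, and 16 lower (11.6%), where 16.8% of all genes were. The members' median was 0.09 and that of all genes -0.01. The largest increases were Plagl1 (1.55 ± 0.16, adjusted p = 4.585e-05), Emilin1, an elastic fibre glycoprotein (1.55 ± 0.23, adjusted p = 0.000512), Rgs5 (1.42 ± 0.24, adjusted p = 0.00114), Dlk1 (1.31 ± 0.20, adjusted p = 0.000581) and Pdlim3, a LIM protein of the actin cytoskeleton in muscle (1.24 ± 0.15, adjusted p = 0.000167). The largest decreases were Rai14 (-1.31 ± 0.14), Nnat (-1.27 ± 0.12), the secreted collagen-triple-helix protein Cthrc1 (-1.02 ± 0.23), Id3 (-0.98 ± 0.16) and Marcks (-0.98 ± 0.12), with limma adjusted p between 3.146e-05 and 0.00670. Among role classes, 7 of 17 matrix genes were higher and 2 lower, and 3 of 10 secreted ligands and antagonists were higher and 4 lower. Without experiment B, 19 members were higher and 10 lower, when 8.27% of all genes were higher and 11.0% lower. Without experiment C, 21 members were higher and 9 lower, when 8.70% of all genes were higher and 9.001% lower.

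In green-only against double-negative cells, 38 members were higher (27.5%), where 8.73% of all genes were, and 4 lower (2.90%), where 10.6% of all genes were. The members' median was 0.15 and that of all genes -0.01. The largest increases were Plagl1 (1.61 ± 0.16, adjusted p = 7.661e-05), the insulin-like growth factor binding protein Igfbp4 (1.35 ± 0.25, adjusted p = 0.0042), Vim (1.23 ± 0.26, adjusted p = 0.00729), Igf2 (1.23 ± 0.16, adjusted p = 0.000541) and Rgs5 (1.18 ± 0.24, adjusted p = 0.00625). The 4 that were lower were Nnat (-0.76 ± 0.12), Ptn (-0.63 ± 0.15), the transmembrane protein Plxdc2 (-0.50 ± 0.15) and Pgf (-0.46 ± 0.10), with limma adjusted p between 0.00166 and 0.0359. Igf2 read 3454, 4188 and 3608 in red-only cells, 1953, 2459 and 2401 in double-positive cells, 2278, 3196 and 2631 in green-only cells, and 908, 1215 and 1348 in double-negative cells. Igfbp4 read 950, 878 and 930 in red-only cells, 421, 473 and 560 in double-positive cells, 392, 707 and 696 in green-only cells, and 159, 236 and 299 in double-negative cells.

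The number higher in green-only cells was 25 without green-only C, when 6.68% of all genes were higher, and 25 without double-negative A, when 6.24% were. It was 9 without experiment B, when 3.35% of all genes were higher, and 17 without experiment C, when 4.02% were. The number lower was 7 without green-only A and 7 without experiment A, when 13.1% and 11.2% of all genes were lower. It was 2 without double-negative A, 1 without experiment B and 0 without experiment C, when 7.62%, 4.21% and 3.54% of all genes were lower. With the experiment letter as a block in the fit, which pairs arrays of the same experiment, 45 members were higher and 6 lower in green-only than in double-negative arrays, when 10.6% of all genes were higher and 12.6% lower. The same fit called 2 members higher and 16 lower in double-positive than in green-only cells, when 3.50% of all genes were higher and 4.01% lower.

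Across the comparisons, 25 members (18.1%, against 5.42% of all genes) were called higher in both double-positive and green-only cells than in the double-negative population and not called between the 2 reporter-positive populations. A further 11 (7.97%, against 1.32%) were called higher in green-only cells and in no other comparison, and 7 (5.07%, against 5.47%) in double-positive cells and in no other comparison. The difference between these patterns was not tested. On the mesenchyme and matrix list, of 32 genes tested, 11 were higher and 3 lower in double-positive cells than in the double-negative population, 15 higher and 1 lower in green-only cells than in the double-negative population, and 4 higher and 1 lower in double-positive than in green-only cells. On the endothelial list, of 29 genes tested, 16 were higher and 0 lower in green-only cells than in the double-negative population by limma, against 1 higher and 1 lower in double-positive cells than in the double-negative population, and 7 were lower in double-positive than in green-only cells.

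**Figure D5:**
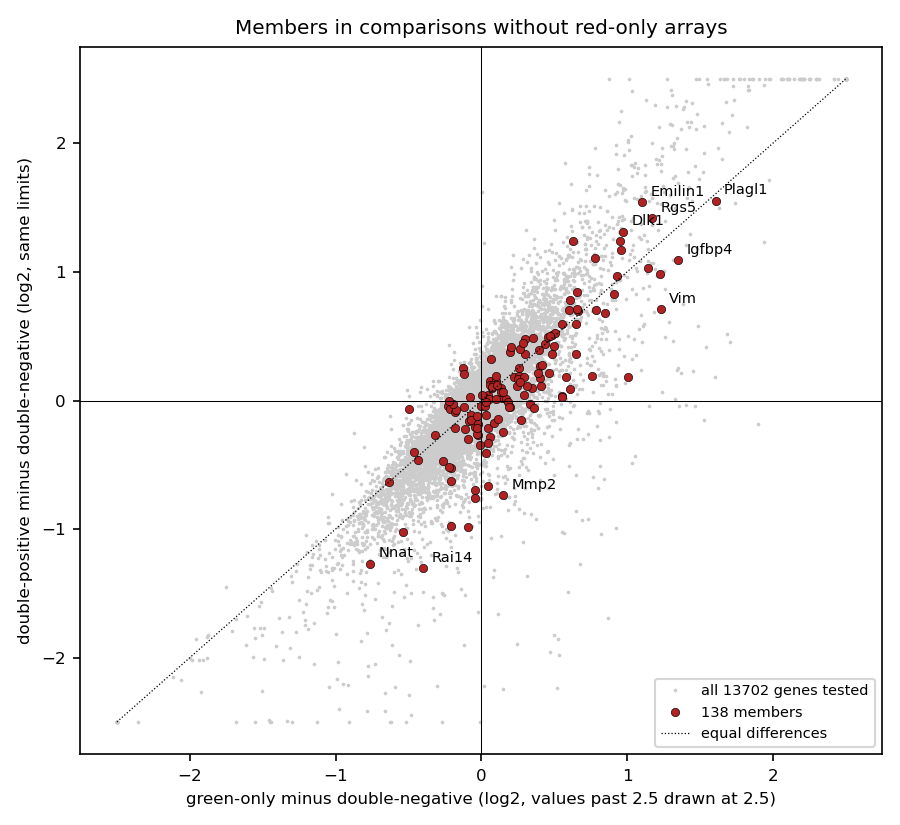
Log2 difference of green-only minus double-negative cells (horizontal axis) and of double-positive minus double-negative cells (vertical axis) for all 13702 genes tested (grey) and the 138 members (red), with values past 2.5 drawn at 2.5. The members include Plagl1, at 1.61 and 1.55, and Rai14 and Nnat, at -1.31 and -1.27 on the vertical axis; both axes use the same double-negative arrays, so a slope of the cloud is not read as a result.

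To read the pattern in arrays that the selection did not use, the rule was applied to 2 experiments at a time and the chosen genes were read in the experiment left out. Of 146 genes chosen without experiment A, the red-only array was the highest of 4 in that experiment for 132 (90.4%), where it was for 22.9% of all genes at the same level. Of 158 chosen without experiment B it was highest for 149 (94.3%, against 25% of all genes), and of 183 chosen without experiment C for 172 (94.0%, against 24.9%). The median ratio to the highest other array of that experiment was 1.38, 1.36 and 1.27. Since the labels do not say whether the experiments were separate cultures, this may be a repeat reading of the same material.

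Other probe sets of the same genes were a further reading, made on the same RNA. Of 168 other probe sets, from 88 members, 122 had their highest mean in red-only cells and 69 had every red-only array above the other 9, where 2.24% of all genes did by their own probe set. Of the 64 with a red-only mean of at least 20, 63 were highest in red-only cells, 50 did not overlap and 42 met the whole rule. Over all 18193 genes, 342 did not overlap and had a red-only mean of at least 20, and 0.759% met the whole rule. The 18193 include genes below that level and the 64 do not, so these counts are not on the same footing. By the red-only arrays of 2 experiments at a time, 7147 to 7191 genes reached the level. For the highest mean, no share over all genes was taken. A second Pdgfrb probe set read 36.0, 38.8 and 26.1 in red-only cells and 4.13 to 6.56 on the other 9 arrays, a ratio of 6.29, against 2.12 for the one used. The 3 others of Tgfbi gave 2.80 to 3.54, and 2 others of Vegfc 2.80 and 3.08. Other probe sets of further leading genes were dim and did not meet the rule. That of Foxc1 had a red-only mean of 15.8 and a ratio of 2.31, and that of Snai2 a mean of 14.4 and a ratio of 1.39, against 2.96 for the one used. Those of Col3a1, Cdh11, Col26a1 and Tcf21 had red-only means of 5.29, 4.04, 4.23 and 6.22 and ratios of 1.57, 1.11, 0.975 and 0.823. Brighter probe sets of some members also fell short. For Mfap2 and Nid1, 1 each, at red-only means of 75.2 and 72.8, gave 1.24 and 1.20. For Vim, 1 read 567 in green-only C and 523 in red-only C, while another met the rule at 1.62. Of the other Phf21a probe sets with a red-only mean of at least 20, the brightest gave 0.990 and the next 1.02. The red-only peak of Phf21a, a chromatin reader, thus rests on 1 probe set. Of the probe sets that represent the members, 7 end in _s_at and 5 in _x_at, the suffixes the manufacturer gives to probes that can match several transcripts, among them those of Tgfbi, Dlk1, Snai2 and Plagl1.

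Members just inside the rule's limits differed little from genes just outside. The lowest ratios among members were 1.3001 for Prkd2, 1.301 for Zfp362 and 1.305 for Gpr137b, and the nearest genes left out were Limd2, at 1.2999, and Tmem132a and Adam19, both at 1.297. By level, Antxr1, Clmp and Dnm1 entered with red-only means of 20.6, 20.8 and 21.7, and Bmi1, Eef2k and Spats2l stayed out with 19.7, 19.6 and 17.99. By overlap, Nid1, Adam12 and Maged2 had their lowest red-only array 1.01 times the highest other array. Klhl6, Junb and Crabp1 stayed out with 0.994, 0.989 and 0.986.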

How the data were processed

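RNA of 12 sorted samples, 3 for each of 4 populations, was measured on Affymetrix arrays from 5 ug of total RNA each, per the labels. The deposited values are linear probe set intensity values made with MAS5, per the submitters' processing notes, whose version and scaling are not given in the sources used here. There are no detection calls, and the number of arrays limits the precision. Groups and experiment letters were taken from the sample titles, since the sort description repeats 1 population name.

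Of 45101 probe sets, 64 controls were left out; 34945 listed 1 gene, 932 several and 9160 none, per the platform annotation. Symbols were updated through RefSeq, apart from 204 without a current entry. Tests used log2(deposited intensity + 4.10), 4.10 being the lower quartile of the values, for genes whose mean over the 9 arrays reached the 40th percentile (3.225). limma 3.58.1 in R 4.3.3 (lmFit, eBayes) fitted 1 mean per population with 6 residual degrees of freedom, two-sided. The script was tested on simulated data. Figures were drawn with matplotlib 3.10.9.

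Experiment letters paired the arrays: deviations from the population means correlated at 0.116 to 0.390 in all 9 pairs of the same experiment and at most 0.0718 between experiments. Deviations from the mean of 3 arrays push correlations between experiments down where those within are up, so part of this gap is built in. Pairing comes from the titles. The main fit left the experiment letter out, and the fit with it as a block is given as an alternative. Named were the 12 members with the highest ratio, up to 4 per role class, up to 5 largest changes per direction and comparison, the 3 genes on each side of each limit, list members, and the sort check. Members, lists and role classes were chosen with earlier results of these data known. Alternatives covered the pseudocount, normalization, filter, arrays in the fit, block, variance model, rule limits, probe set choice and leaving out arrays.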

Additional observations from a re-analysis of the deposited data

Results flagged for a closer look

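Among the 10092 probe sets that list no gene or several, which entered no comparison, 8 met the rule for a peak in red-only cells, 3 of them listing several genes. By the same rule 138 of the 18193 genes (0.759%) were members, a larger share. Each gene was represented by its brightest probe set, whereas these probe sets were not chosen by level. The ratios of the 8 to the next highest population ran from 1.31 to 1.88.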

How the results depend on the processing

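The number of members was 65 with a minimum ratio of 1.5 and 342 with none, against 138. The other limits, quantile normalization, the choice of probe set and the comparison within experiments (a replicate block, 172 members) stayed within 1.5 times, and leaving out an array or experiment gave 133 to 183. Which genes they were changed more: of the 138, 95 (68.8%) were among the 146 without experiment A, 120 without experiment B, 131 without experiment C and 112 without red-only A. The share of chosen genes highest in the red-only array of the left-out experiment, 92.9% on average, ran from 90.4% to 94.3%. The single member higher in double-positive than in green-only cells became 0 with no filter, 0 with all 12 arrays in the fit and 0 with an intensity trend, and 2 with the replicate block. The block also gave 18 called in that comparison, 62 in double-positive and 51 in green-only against double-negative cells. The 62 were 41 higher and 21 lower, when 14.7% of all genes were higher and 18.8% lower. Leaving out arrays or experiments gave 0 to 13 members called in double-positive against green-only cells (0 to 1 higher, 0 to 13 lower), 29 to 58 in double-positive against double-negative cells (19 to 38 higher, 9 to 20 lower) and 10 to 52 in green-only against double-negative cells (9 to 45 higher, 0 to 7 lower). Over all genes, the same refits called 0% to 1.88% higher and 0% to 2.28% lower in double-positive than in green-only cells. Against double-negative cells these shares were 8.27% to 14.0% and 9.001% to 18.5% for double-positive cells. For green-only cells they were 3.35% to 9.25% and 3.54% to 13.1%. Fewer arrays leave fewer degrees of freedom. Of 500 refits of the named genes, 438 kept their call and 62 lost it, led by Col9a1, Nid1 and Plxdc2, and none changed direction. The number of arrays and values near the floor limit what can be seen in dim genes.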
